A study of Homo sapiens with 9 samples.

Results

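Aminoacyl-tRNA synthetases join each amino acid to its matching tRNA, the step that fixes the genetic code before a ribosome reads it. Human cells keep a cytosolic set and a separate mitochondrial set, both encoded in the nucleus, and the lysine and glycine enzymes (KARS1 and GARS1) serve both compartments. Several cytosolic enzymes sit together in the multi-synthetase complex, and many genes of the cytosolic set are known targets of ATF4, the transcription factor of the amino acid response. The family was chosen by gene symbol and not by any measured value, though earlier results of these data were known. It held 35 of the 25801 named genes in the table: 17 cytosolic, 2 dual and 16 mitochondrial synthetases. These genes took up 94 of 56868 rows, which came down to 50 distinct 3′ intervals, and 11 of the 35 genes had more than 1 interval. The interval with the most reads stood for each gene.

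The libraries came from MCF10A, a non-transformed human mammary epithelial line, and every group carried the same background: a JUN knockout (JUN KO) rebuilt with JUN fused to an auxin-inducible degron and a V5 tag (JUN-AID-V5, driven by the EF1a promoter of a viral vector), together with the ubiquitin ligase adaptor TIR1. JUN, a subunit of the AP-1 transcription factor, is broken down in such cells on treatment with an auxin, indole-3-acetic acid (IAA). The groups were labelled no 4sU, DMSO 4sU and IAA 4sU, with 3 replicates each. The no 4sU control also had 1 h of pretreatment without IAA and was kept without the nucleoside 4-thiouridine. DMSO 4sU cells had solvent for 1 h, then 100 µM 4-thiouridine for 1 h. IAA 4sU cells had 100 µM IAA for 1 h, then 100 µM 4-thiouridine for 1 h. In SLAM-Seq, 4-thiouridine (4sU) enters RNA made during the pulse and is read as C in place of T after alkylation, so the T>C conversion rate, the percentage of T positions read as C, follows the portion of an mRNA that was made in the pulse.

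The 3 IAA 4sU columns were identical in every row and were counted as 1 library, which left 7 libraries of 18997637 to 24014195 reads. The table gave the level of each interval in reads scaled to library size (CPM), and reads behind each value could be recovered as whole numbers in 100% of cases. The number of T positions behind a rate is not in the table, so no counting interval is given for rates. The cells were checked against markers of mammary epithelium. The basal markers KRT5, KRT17 and TP63 stood at 519 to 709, 156 to 349 and 15.0 to 19.3 CPM, whereas the basal marker KRT14 reached only 10.6 CPM; EPCAM, a general epithelial marker, stood at 112 to 156 CPM. Of the markers of other cell types, PTPRC was at 0 in all 7 libraries, ALB at no more than 0.141 CPM and PECAM1 at no more than 1.08 CPM, while COL1A1 lay between 3.21 and 9.82 CPM. JUN mRNA stood at 48.1, 57.6 and 45.0 CPM without 4sU, at 30.2, 20.3 and 25.6 CPM in DMSO 4sU and at 62.9 CPM with IAA; the degron acts on the protein, so this mRNA does not check the depletion. The study describes the replicates of this experiment as biological, whereas the labels do not say whether they were separate cultures, and p-values measure the spread between these libraries.

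The promoter sequences are shown because members of one family may share elements near their start sites. RefSeq (assembly GRCh38.p14) gave a window from 250 bases before to 50 bases after the start for 30 of the 35 genes; the first window listed for each gene was used. The window was searched on both strands for TGATGNAA, the C/EBP-ATF response element (CARE) through which ATF4 is known to act. It was found in 7 of the 30 windows, against 3.67% of the 27305 windows of all genes. By compartment these were 6 of 14 cytosolic genes (AARS1, CARS1, IARS1, MARS1, NARS1 and TARS1), 1 of 14 mitochondrial genes (YARS2) and 0 of 2 dual genes. A match describes letters in a window and not a bound site. Each match is shown 5′ to 3′ on the strand of its gene with the matching letters in capitals, and bases after the start are shown only as far as the match runs.
AARS1, alanine, cytosolic, chr16:70289660-70289719, minus strand: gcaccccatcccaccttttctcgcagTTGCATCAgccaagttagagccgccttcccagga
CARS1, cysteine, cytosolic, chr11:3057418-3057451, minus strand: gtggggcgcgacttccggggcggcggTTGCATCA
IARS1, isoleucine, cytosolic, chr9:92293698-92293736, minus strand: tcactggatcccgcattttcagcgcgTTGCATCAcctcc
MARS1, methionine, cytosolic, chr12:57488038-57488071, plus strand: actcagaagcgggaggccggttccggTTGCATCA
NARS1, asparagine, cytosolic, chr18:57621815-57621848, minus strand: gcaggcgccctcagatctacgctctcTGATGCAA
TARS1, threonine, cytosolic, chr5:33440941-33440974, plus strand: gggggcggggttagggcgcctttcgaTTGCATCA
YARS2, tyrosine, mitochondrial, chr12:32756061-32756120, minus strand: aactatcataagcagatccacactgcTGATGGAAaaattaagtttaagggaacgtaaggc

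All 6 cytosolic matches spelled the same element, TGATGCAA, read on one strand or the other, whereas the YARS2 match spelled TGATGGAA. In 5 of those 6 genes the element began within 14 bases of the start site: its first base was 2 bases before the start in CARS1, 4 in MARS1 and 13 in IARS1, and it was 2 bases after the start in TARS1 and 14 in NARS1. In AARS1 and YARS2 it lay 187 and 197 bases before the start. CACGTG, an E-box bound by MYC and related factors, was found in 4 of the 30 windows (CARS2, EARS2, IARS1 and MARS2) against 7.43% of all windows. The core letters GCATGCGC bound by NRF1, a regulator of nuclear genes for mitochondria, were found in MARS2 and YARS2, against 3.27% of all windows. TGANTCA, the element of AP-1, was found in 0 of the 30 windows and in 7.76% of all windows. MARS2, the mitochondrial methionine enzyme, held the E-box and the NRF1 core within the 27 bases before its start, and its window is shown with the E-box in capitals.
MARS2, methionine, mitochondrial, chr2:197705332-197705368, plus strand: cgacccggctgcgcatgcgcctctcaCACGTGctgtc

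Synthetase mRNAs spanned a wide range of levels, and the cytosolic set was higher than the mitochondrial set in all 7 libraries. Libraries made from 3′ ends give about 1 read position per transcript, so CPM were compared between genes without division by length. KARS1, the lysine enzyme of both compartments (GRCh37, chr16:75661372-75682541, minus strand, 14 exons), was the highest, with 122, 163 and 167 CPM without 4sU, 179, 192 and 178 CPM in DMSO 4sU and 184 CPM with IAA. TARS1 (threonine, chr5:33440802-33468196, plus strand) followed with 104, 193 and 169 CPM without 4sU, 125, 221 and 184 CPM in DMSO 4sU and 169 CPM with IAA. IARS2, the mitochondrial isoleucine enzyme (chr1:220267474-220321383, plus strand), stood at 142, 131 and 134 CPM without 4sU, at 77.6, 154 and 131 CPM in DMSO 4sU and at 98.3 CPM with IAA. In DMSO 4sU these means were 183 ± 7.88, 177 ± 48.6 and 121 ± 39.1 CPM (SD, n = 3), so TARS1 and IARS2 varied far more between libraries than KARS1. GARS1, the glycine enzyme, completed the upper end with 109, 80.8 and 71.3 CPM without 4sU, 98.2, 97.7 and 91.6 CPM in DMSO 4sU and 107 CPM with IAA.

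The 4 lowest genes were all mitochondrial. PARS2, the mitochondrial proline enzyme (chr1:55222571-55230196, minus strand, 2 exons), had 3.76, 2.95 and 3.11 CPM without 4sU, 1.60, 1.42 and 1.29 CPM in DMSO 4sU and 1.94 CPM with IAA, from 26 to 76 reads a library. RARS2 (arginine) had 5.09, 2.32 and 2.47 CPM without 4sU, 5.31, 2.25 and 2.24 CPM in DMSO 4sU and 3.64 CPM with IAA. Its first replicate was high with and without 4sU alike. FARS2 (phenylalanine) stood at 3.95, 5.90 and 4.53 CPM without 4sU, at 6.25, 5.29 and 7.02 CPM in DMSO 4sU and at 5.98 CPM with IAA. SARS2 (serine) stood at 6.77, 5.05 and 5.53 CPM without 4sU, at 7.38, 5.79 and 6.77 CPM in DMSO 4sU and at 8.13 CPM with IAA. When the genes were ordered by their mean in DMSO 4sU, 29 of the 34 neighbouring pairs overlapped between their 3 libraries. The 5 steps without overlap were GARS1 over NARS1, NARS1 over EPRS1, RARS1 over SARS1, EARS2 over NARS2 and RARS2 over PARS2.

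**Figure D1:**
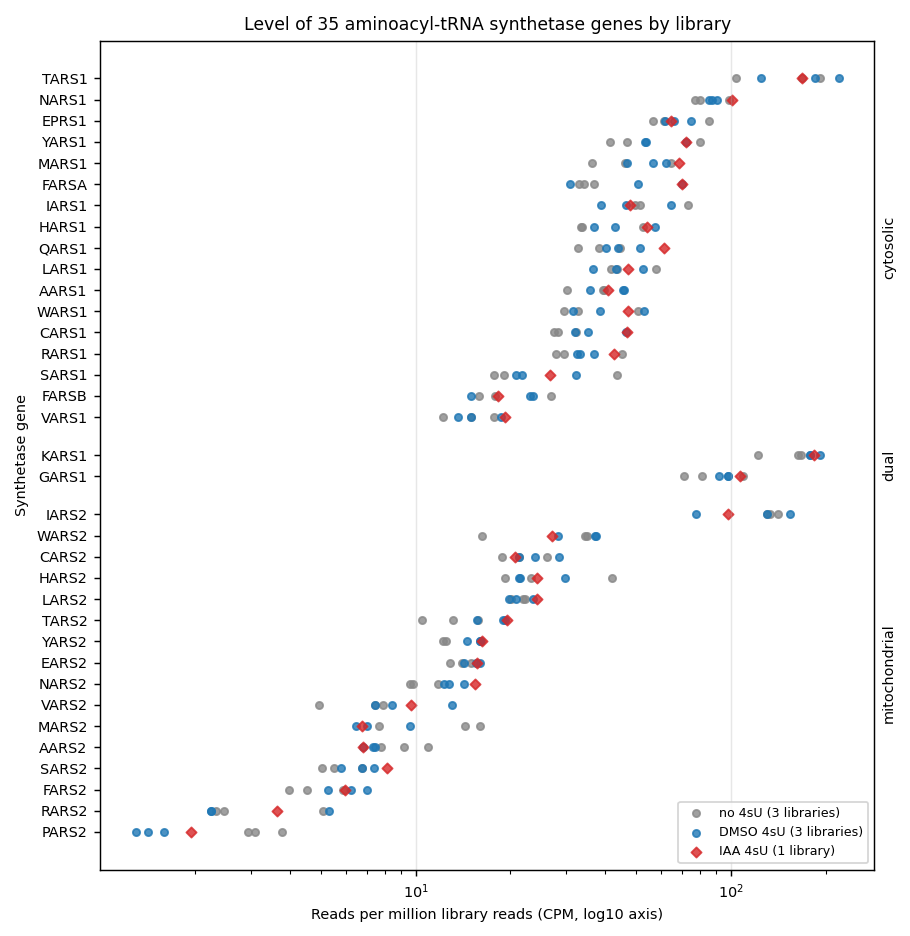
Level of the 35 synthetase genes in CPM (log10 axis), 1 row per gene in order of the DMSO 4sU mean within each compartment, with 1 point for each of 7 libraries (grey no 4sU, blue DMSO 4sU, red diamond IAA 4sU). Of the mitochondrial genes, IARS2 alone lies above 77 CPM in all 7 libraries, and PARS2 has the lowest values, with its 3 DMSO 4sU points below its 3 no 4sU points.

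The median level over the 17 cytosolic genes was 50.9, 34.2 and 36.8 CPM without 4sU, 51.4, 36.9 and 43.96 CPM in DMSO 4sU and 48.0 CPM with IAA. For the 16 mitochondrial genes it was 11.3, 12.5 and 12.8 CPM without 4sU, 15.1, 13.5 and 13.4 CPM in DMSO 4sU and 15.5 CPM with IAA. The ratio of these medians lay between 2.73 and 4.48 over the 7 libraries, and it was higher when levels were divided by interval length (5.66 in DMSO 4sU, against 3.13 for CPM). The genes of a set are not replicates of each other, and no test was made on these medians. The medians lay on either side of that of all genes tested for their rate, which was 28.0 to 32.1 CPM. Those genes had at least 200 reads on average, which 6 of the 16 mitochondrial genes did not reach. Over all 11035 genes with a mean of at least 1 CPM the median was 13.7 to 15.3 CPM, near the mitochondrial median.

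Each mitochondrial enzyme was then set beside the cytosolic enzyme for the same amino acid, with EPRS1, the fused glutamate and proline enzyme, serving for EARS2 and PARS2, and both subunits of the phenylalanine enzyme, FARSA and FARSB, for FARS2. The cytosolic gene was higher in all 7 libraries in 15 of 17 such pairs. The widest gap was that of EPRS1 over PARS2, with a ratio of 20.7 ± 2.26 (SD, n = 3) without 4sU and 47.5 ± 7.62 in DMSO 4sU. RARS1 exceeded RARS2 by 12.5 ± 5.54 times and TARS1 exceeded TARS2 by 9.96 ± 3.03 times in DMSO 4sU. At the other end, IARS1 was below IARS2 in all 7 libraries, with ratios between 0.355 and 0.517. WARS1 and WARS2, the tryptophan enzymes, were not set apart: the ratio was 3.14, 0.843 and 0.953 without 4sU, 1.88, 0.845 and 1.03 in DMSO 4sU and 1.75 with IAA. HARS1 and HARS2, the histidine enzymes, lie head to head on chromosome 5 with overlapping starts (140052620 to 140071122 on the minus strand and 140071015 to 140078890 on the plus strand), and HARS1 was higher in each library, by 1.24 to 2.70 times.

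**Figure D2:**
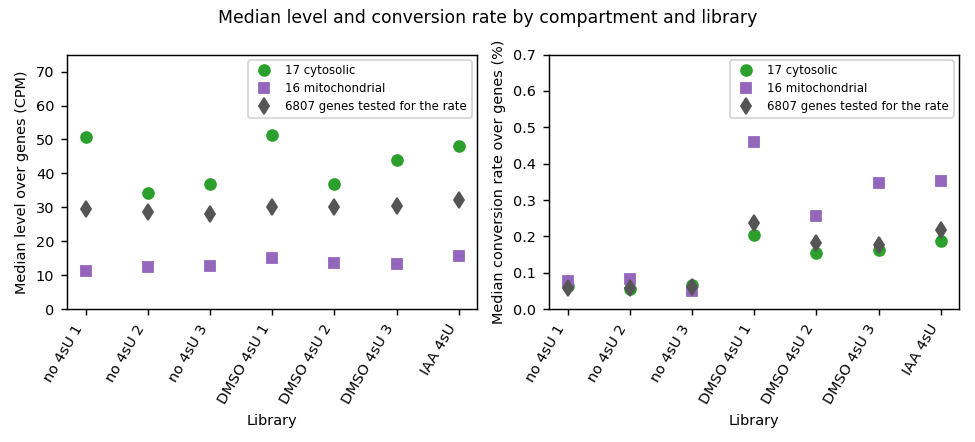
Median level in CPM (left) and median T>C conversion rate in percent (right) in each of the 7 libraries for the 17 cytosolic genes (green circles), the 16 mitochondrial genes (purple squares) and the 6807 genes tested for their rate (grey diamonds), on axes from 0. The cytosolic median level is above the mitochondrial one in all 7 libraries, and the order of the rates is the opposite in the 4 labelled libraries.

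With 4sU, the conversion rate rose in 17 of the 29 synthetase genes that had at least 200 reads on average, and fell in 0 (limma on log2(rate + 0.0005), adjusted p under 0.05). At the unadjusted p under 0.05 there were 19. Over all 6807 genes tested, 66.3% were called higher, so the share in the family, 17 of 29, was not above that of all genes. The calls took in 9 of 17 cytosolic genes, 1 of 2 dual genes (GARS1) and 7 of the 10 mitochondrial genes tested. The other 6 genes, all mitochondrial (VARS2, AARS2, SARS2, FARS2, RARS2 and PARS2), had too few reads for the test. In 21 of all 35 genes the rates of the 3 DMSO 4sU libraries were all above those of the 3 without 4sU, against 59.0% of the 11035 genes with a mean of at least 1 CPM.

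The lowest adjusted p belonged to WARS1, the cytosolic tryptophan enzyme: its rate was 0.0188%, 0.0293% and 0.0203% without 4sU, 0.154%, 0.195% and 0.196% in DMSO 4sU and 0.0855% with IAA. The labelled and unlabelled libraries stood well apart, with a log2 change of 1.67 (SE 0.22, limma adjusted p = 0.000711). HARS1 followed among the cytosolic genes with a log2 change of 1.66, from 0.0395% ± 0.0134 to 0.231% ± 0.0250 (SD, n = 3). Its head-to-head partner HARS2 rose by a log2 change of 1.84, from 0.101% ± 0.0256 to 0.489% ± 0.104. MARS1, methionine, rose by 1.78. Among mitochondrial enzymes, the largest log2 changes were those of CARS2 (cysteine, 2.52), MARS2 (2.41) and YARS2 (2.38). The 12 genes tested without a call were AARS1, CARS1, FARSB, IARS1, LARS1, QARS1, TARS1 and VARS1 of the cytosolic set, KARS1, and IARS2, NARS2 and TARS2 of the mitochondrial set. RARS1, WARS2, EARS2, YARS1 and NARS1 were called here and lost the call under at least 1 other setting, while 6 of the 12 (AARS1, CARS1, FARSB, NARS2, TARS2 and VARS1) gained one under at least 1 other setting.

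The difference between the mean rate in DMSO 4sU and the mean without 4sU is called the excess rate here. Its highest values belonged to PARS2 and MARS2. PARS2 gave 0%, 0.195% and 0% without 4sU, 1.43%, 7.32% and 3.66% in DMSO 4sU and 1.90% with IAA, an excess of 4.07%, from 49.2 reads on average. All 4 labelled libraries were above the 3 unlabelled ones, but they spread over a wide range. MARS2 (chr2:198570093-198573119, plus strand), the family's one gene with a single exon, gave 0.114%, 0.0774% and 0.0747% without 4sU, 1.84%, 0.503% and 0.321% in DMSO 4sU and 1.14% with IAA, an excess of 0.80% (limma log2 change 2.41, SE 0.56, adjusted p = 0.00774). Next came FARS2, with 0.0758%, 0.243% and 0% without 4sU, 1.17%, 0.0987% and 0.364% in DMSO 4sU and 0.0503% with IAA. Its labelled and unlabelled libraries overlapped. VARS2, the mitochondrial valine enzyme, gave 0.204%, 0.120% and 0% without 4sU, 0.404%, 0.301% and 0.832% in DMSO 4sU and 0.297% with IAA.

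The lowest excess rates came from genes of very few reads and from the most abundant ones. RARS2 was listed at 0% in all 4 labelled libraries and at 0.30%, 0% and 0% without 4sU; its interval was only 38 bases long. SARS2 gave 0.0561%, 0.187% and 0% without 4sU, 0%, 0.254% and 0% in DMSO 4sU and 0.194% with IAA. KARS1 gave 0.0465%, 0.0391% and 0.0592% without 4sU, 0.102%, 0.0752% and 0.0710% in DMSO 4sU and 0.0815% with IAA. Its groups did not overlap, yet the excess was only 0.0344% and the log2 change of 0.43 (SE 0.24) gave a limma adjusted p of 0.135. IARS2 gave 0.0808%, 0.0609% and 0.0645% without 4sU, 0.0970%, 0.105% and 0.118% in DMSO 4sU and 0.131% with IAA, an excess of 0.0379% (log2 change 0.40, SE 0.21, limma adjusted p = 0.119). NARS2, the mitochondrial asparagine enzyme, had the highest rates without 4sU among the 29 synthetases tested, 0.425%, 0.507% and 0.279%, beside 0.708%, 0.751% and 0.507% in DMSO 4sU.

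**Figure D3:**
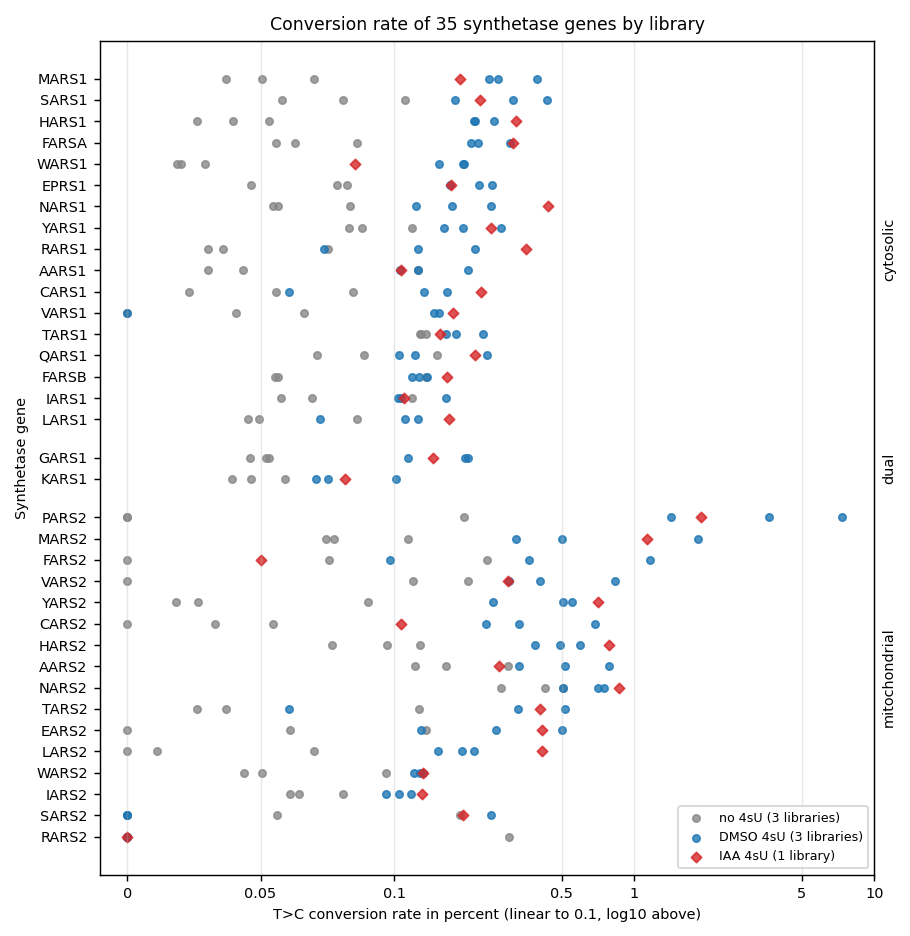
T>C conversion rate in percent of the 35 synthetase genes (linear axis up to 0.1%, log10 above), 1 row per gene in order of the excess rate within each compartment, with 1 point per library (grey no 4sU, blue DMSO 4sU, red diamond IAA 4sU). PARS2 and MARS2 reach the highest labelled rates, 7.32% and 1.84%, while the labelled rates of KARS1 and IARS2 stay at or below 0.131%.

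Mitochondrial synthetase mRNAs had a higher median conversion rate than cytosolic ones in each of the 4 labelled libraries. The median over the cytosolic genes was 0.204%, 0.153% and 0.162% in DMSO 4sU and 0.188% with IAA, and over the mitochondrial genes 0.459%, 0.257%, 0.347% and 0.352%. Without 4sU the medians lay together, at 0.0631%, 0.0557% and 0.0662% for the cytosolic genes and 0.0764%, 0.0839% and 0.0507% for the mitochondrial ones. Among the genes tested, the median excess rate was 0.0919% for 17 cytosolic genes, 0.245% for 10 mitochondrial genes and 0.139% for all genes. The excess was below that of all genes in 11 of 17 cytosolic, 2 of 2 dual and 2 of 10 mitochondrial genes. In 8 of the 17 pairs the mitochondrial gene had the higher rate in all 4 labelled libraries, whereas in the pairs of RARS2 with RARS1 and of SARS2 with SARS1 it did so in 0 of 4. No background was taken off these rates. AARS2, PARS2 and VARS2 among the 8, and RARS2 and SARS2, had too few reads for the rate test with 4sU. NARS2, also among the 8, had rates without 4sU (0.425%, 0.507% and 0.279%) above those of NARS1 in DMSO 4sU (0.253%, 0.124% and 0.175%).

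The excess rate was lower where the level was higher. Over the 29 genes tested, Spearman's rho between the DMSO 4sU level and the excess rate was -0.53, and over all genes tested it was -0.28; genes share libraries and depth, and both values are descriptions across genes. The mitochondrial genes had a median of 279 reads on average against 897 for the cytosolic genes, and the part of level or depth in the difference between the sets was not tested. Within the cytosolic and dual genes, the 7 members of the multi-synthetase complex (EPRS1, IARS1, KARS1, LARS1, MARS1, QARS1 and RARS1) had a median excess of 0.0536%, against 0.117% for the 12 outside it. The range within the complex was nevertheless wide, from 0.0344% in KARS1 to 0.252% in MARS1. By catalytic fold, the median was 0.0657% for 9 enzymes of class I and 0.119% for 9 of class II, EPRS1 holding 1 domain of each class. Of the 7 genes with a CARE in their promoter window, 3 had a called rise of the rate (MARS1, NARS1 and YARS2). The count was 13 of 19 tested genes whose window held none, and the share over all genes tested was 66.3%. Calls in both groups, such as NARS1 with a CARE and RARS1 without, were lost under at least 1 other setting. The difference between these few genes was not tested.

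For most genes with several intervals, the intervals with reads gave nearly the same values. Coordinates of the intervals are not given, so whether they were nested was not checked. SARS1, the cytosolic serine enzyme, differed most. Its main interval of 297 bases gave 0.0581%, 0.111% and 0.0809% without 4sU and 0.179%, 0.314% and 0.433% in DMSO 4sU. A second interval of 2945 bases, listed for a non-coding transcript of the gene, held 6.29 to 11.7 CPM and gave 0%, 0.124% and 0.107% without 4sU, 1.23%, 0.847% and 2.59% in DMSO 4sU and 1.41% with IAA. Its labelled rates were above those of the main interval in all 4 labelled libraries. In FARSB, the DMSO 4sU rates of the main interval (0.119%, 0.127% and 0.137%) overlapped those without 4sU (0.0555%, 0.0564% and 0.136%). Those of its second interval of 431 bases (0.118%, 0.146% and 0.193%) were all above those without 4sU (0.0544%, 0.0322% and 0.0818%). With IAA the 2 FARSB intervals gave 0.167% and 0.187%. EARS2, VARS1 and VARS2 listed further intervals with no reads.

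Total mRNA of the synthetases did not pass the test for a change with 4sU in any of the 35 genes (limma on log2(CPM + 1), adjusted p under 0.05). Over all 11035 genes tested, 1.59% were called, and these 176 genes were lower in each case. At an unadjusted p under 0.05 there were 2 synthetases, PARS2 and MARS2; edgeR's quasi-likelihood test called 0 and DESeq2 called 1, PARS2. In bulk libraries, fewer cells that express a gene and less of its RNA per cell cannot be told apart. The median log2 difference was 0.09 over the synthetases and 0.03 over all genes, with 0.08 for the cytosolic and 0.09 for the mitochondrial set.

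PARS2 was nearest to the threshold. Its level was 3.27 ± 0.428 CPM without 4sU and 1.44 ± 0.152 CPM in DMSO 4sU (SD, n = 3), and all 3 labelled libraries were below all 3 unlabelled ones. The log2 difference was -0.84 (SE 0.18) with a limma adjusted p of 0.0546, which ranged from 0.00766 with DESeq2 to 0.27 over the other settings. MARS2 stood at 7.66, 16.04 and 14.4 CPM without 4sU, at 6.48, 6.996 and 9.61 CPM in DMSO 4sU and at 6.78 CPM with IAA. Its replicate 1 without 4sU lay within the range of the labelled libraries. The log2 difference was -0.66 (SE 0.29, limma adjusted p = 0.486). It became -0.995 with a limma adjusted p of 0.0312 when that library was left out (range over the settings 0.0312 to 0.871). With a replicate block and all 6 libraries it stayed at -0.66 (SE 0.20, limma adjusted p = 0.211). PARS2 and MARS2 were also the genes with the highest excess rates. On CPM rescaled by TMM library sizes, AARS2 and PARS2 were the 2 synthetases with all DMSO 4sU libraries below all without 4sU, a pattern seen in 10.8% of all genes. The opposite pattern held for CARS1 (not on the deposited scale) and NARS2, and for 6.93% of all genes.

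**Figure D4:**
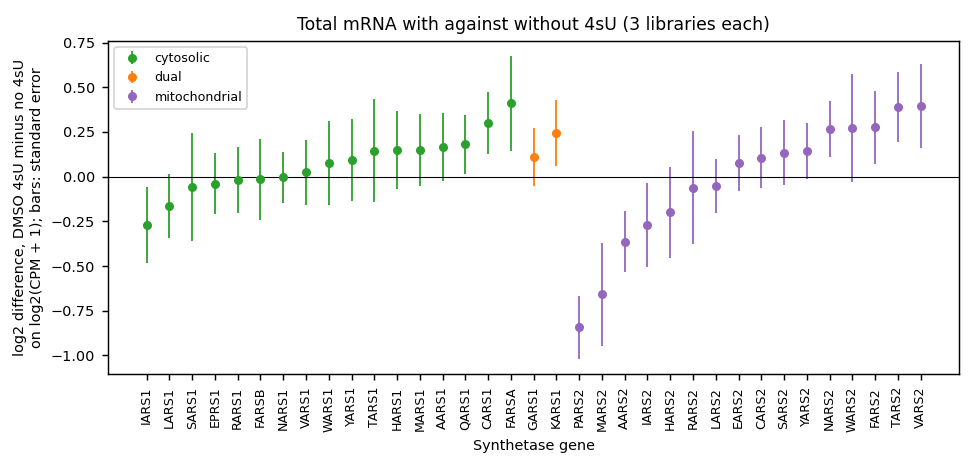
Log2 difference in total mRNA between DMSO 4sU and no 4sU on the log2(CPM + 1) scale (3 libraries each) for the 35 synthetase genes, coloured by compartment, with bars for the standard error from limma. PARS2 (-0.84) and MARS2 (-0.66) are the lowest points, and no gene passes an adjusted p of 0.05.

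Replicate 1 was the highest library with and without 4sU alike more often in the synthetases than in all genes, and less often the lowest. On the same rescaled CPM it was the highest of the 3 libraries in both groups in 14 of the 35 genes (40.0%), against 23.9% of all genes, and the lowest in both in 4 genes (11.4%), against 23.7% of all genes. Of the cytosolic genes, 8 of 17 were highest in both (CARS1, FARSB, HARS1, QARS1, SARS1, VARS1, WARS1 and YARS1), and of the mitochondrial genes 5 of 16. SARS1 stood at 43.6, 17.8 and 19.1 CPM without 4sU and at 32.3, 20.8 and 21.8 CPM in DMSO 4sU. TARS1, KARS1, MARS2 and WARS2 were lowest in both (KARS1 only after the rescaling, since its deposited DMSO 4sU values were 179, 192 and 178 CPM), and TARS1 was 0.90 and 0.69 log2 units below the mean of the other replicates without and with 4sU. Not all genes followed: FARSA, a subunit of the phenylalanine enzyme, was high in replicate 1 in DMSO 4sU only, and IARS2 was low in it there only. What replicate 1 shares between the groups is not given in the labels and was not tested.

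**Figure D5:**
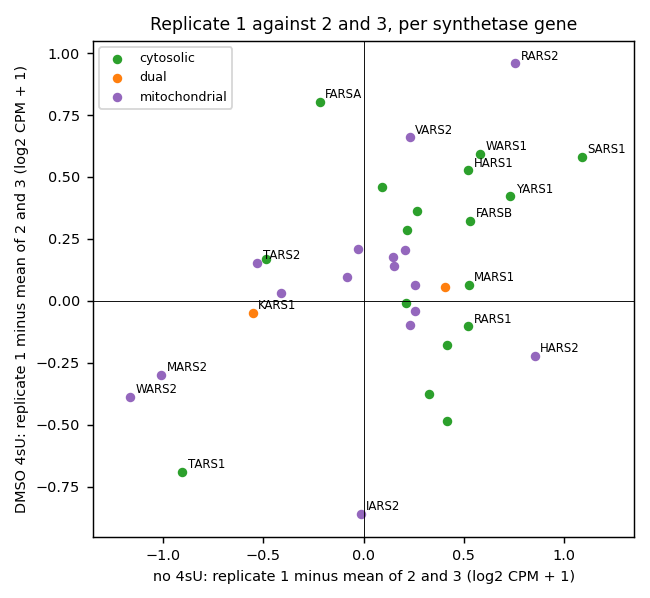
Log2(CPM + 1) of replicate 1 minus the mean of replicates 2 and 3, without 4sU (horizontal) and in DMSO 4sU (vertical), 1 point per synthetase gene coloured by compartment, with names where a value is beyond 0.5. RARS2 (mitochondrial) and SARS1, WARS1, HARS1 and YARS1 (cytosolic) lie at the upper right, and TARS1, WARS2 and MARS2 at the lower left.

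With JUN depleted, no synthetase differed in total mRNA by 1 log2 unit from the mean of the DMSO 4sU libraries. There is 1 IAA library, so the difference has no replicate check; a gene was called when the IAA value, also rescaled, lay at least 1 log2 unit from the DMSO 4sU mean and outside its range. This called 0 of 35 synthetases and 0.146% of 10950 genes. The differences ran from -0.40 to 0.45, and 14 of 35 values (40.0%) were outside the DMSO 4sU range, against 41.5% of all genes. The median difference was 0.15 over the cytosolic genes and -0.04 over the mitochondrial genes. When each DMSO 4sU library was set against the other labelled libraries in the same way, the cytosolic median was 0.19, -0.29 and -0.08, so the IAA value lay within the spread of the DMSO 4sU libraries. The IAA library was nearest to DMSO 4sU replicate 1 in 18 of the 35 genes, as in 52.0% of all genes.

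The lowest values with IAA were those of WARS2, at 27.0 CPM against 28.2, 37.4 and 37.2 CPM (-0.40 log2 units), and of IARS2, at 98.3 CPM against 77.6, 154 and 131 CPM (-0.32). The IARS2 value fell between the DMSO 4sU libraries. The highest were FARSA, at 69.9 CPM against 69.9, 31.0 and 50.7 CPM (0.45), and QARS1, the glutamine enzyme, at 61.6 CPM against 51.4, 40.2 and 43.96 CPM (0.37). Of these, FARSA did not leave the DMSO 4sU range and QARS1 was above it.

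The conversion rate with IAA was compared by the same rule, with the library medians first set equal, and 2 of 29 synthetases with at least 200 reads on average in the labelled libraries (VARS2 now among them and MARS2 not) were called, against 9.01% of 6822 genes. Among the DMSO 4sU libraries, the same rule called 1, 1 and 4 of the 29, so the count for the IAA library lay within theirs. The called genes were CARS2, mitochondrial, at 0.107% against 0.331%, 0.242% and 0.687% (-1.59 log2 units), and RARS1, the cytosolic arginine enzyme, at 0.353% against 0.217%, 0.126% and 0.0739% (1.04). Both lay outside the DMSO 4sU range, but their DMSO 4sU libraries themselves differed widely. WARS1 came next on the low side, at 0.0855% against 0.154%, 0.195% and 0.196% (-0.89), and NARS1 on the high side, at 0.439% against 0.253%, 0.124% and 0.175% (0.98). The median difference was 0.17 over the synthetases and -0.01 over all genes. Over the synthetases it was -0.01 when DMSO 4sU replicate 1 was left out, with 4 genes called. When each DMSO 4sU library was set against the other labelled libraries, the synthetase median was -0.08, 0.06 and 0.03. By compartment, the IAA median was 0.17 over 17 cytosolic and 0.35 over 10 mitochondrial genes. For the DMSO 4sU libraries it was -0.06, 0.06 and -0.04 (cytosolic) and -0.26, -0.03 and 0.28 (mitochondrial). With 1 IAA library, this difference was not tested.

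Genes around tRNA charging outside the family were counted in the same comparisons. Over all genes tested, 1.59% were called in total mRNA and 66.3% were called higher in rate. Of the non-enzymatic parts of the multi-synthetase complex, AIMP1, AIMP2 and EEF1E1, 0 of 3 changed in total mRNA and 3 of 3 had a higher rate with 4sU (limma, adjusted p under 0.05). Among the elongation factors that take over charged tRNA, 0 of 6 changed in total mRNA and 3 of 6 rose in rate (EEF1A1, EEF1G and the mitochondrial TUFM). EEF1A1 reads of 15.5 to 31.9 CPM are uncertain, since this gene has many near-identical copies. For the mitochondrial enzymes that finish the glutamine and initiator methionine tRNAs, 0 of 4 changed in total mRNA and 1 of 2 tested rose in rate, GATC, and in tRNA proofreading and maturation the counts were 0 of 8 and 3 of 5 (ELAC2, POP1 and SSB).

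The list of ATF4 and its targets outside the family held the one gene with a change in total mRNA. DDIT4, an inhibitor of mTORC1 signalling, fell from 85.1, 78.2 and 63.3 CPM without 4sU to 13.2, 10.5 and 9.11 CPM in DMSO 4sU, with 21.9 CPM with IAA, and the other 15 of 16 were not called. Rates rose in 9 of 13 genes tested on that list, near the share of 66.3% over all genes tested. ASNS, asparagine synthetase, stood at 42.5, 22.2 and 21.8 CPM without 4sU and at 46.7, 28.2 and 33.6 CPM in DMSO 4sU. Over the 16 genes of the list, replicate 1 was highest in both groups in 4 (25%, ASNS among them). It was lowest in both groups in 4 others (25%), and these shares were near those of all genes (23.9% and 23.7%). The synthetases with a CARE in their window had log2 differences in total mRNA between -0.27 and 0.30 with 4sU. Of these 7, 0 were called, against 1.59% of all genes tested.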

How the data were processed

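SLAM-Seq libraries of MCF10A cells in 3 groups were read from 1 table that the authors made with the nf-core SLAM-Seq pipeline (genome build hg19 per the labels; tool versions are not given in the sources used here). Rows are 3′ intervals of RefSeq transcripts. The authors deposited the T>C conversion rate as a fraction, from which no background was taken off, and a signal named CPM, the reads scaled to the library. Rows with a common interval list the same reads again, so the deposited signal is CPM only after such rows are counted once; every non-zero value was then a whole number of reads to within 0.01 read (100%). Rows were named through RefSeq (GRCh38.p14; 97.7% of rows), rows of a gene with equal length and values were used once, and per-sample columns not used numbered 0. The interval with most reads stood for a gene. This was chosen after seeing the data, in place of summed or averaged intervals. The reasons were that intervals of a gene with nearly equal values were taken to repeat reads, and that intervals without reads dilute a rate.

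Library totals were 18997637 to 24014195 reads. Counting error sets a limit for genes with few reads, and depth behind a single rate is unknown. Total mRNA was tested with limma (3.58.1, R 4.3.3; trend, robust) on log2(CPM + 1) with TMM library sizes (edgeR 4.0.16) over genes with a mean CPM of at least 1, and rates on log2(rate + 0.0005) over genes with 200 reads or more on average and a non-zero rate in 3 or more of 6 libraries, Benjamini-Hochberg adjusted, threshold 0.05. Log2 differences on these scales understate changes of low genes. edgeR's quasi-likelihood test and DESeq2 (1.42.0) were run on the recovered reads as alternatives. The IAA columns were 1 library and were given no test. Replicate numbers paired the libraries in total mRNA (correlation of deviations between groups 0.395, 0.316 and 0.379) and not in the rates (-0.018, -0.0164 and 0.000514). The fits were tested on simulated data. Gene coordinates are from GENCODE v44lift37 (GRCh37). Figures used Python 3.11.15 and matplotlib 3.10.9.

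The members, gene lists and tests were chosen with earlier results of these data known. Values were given for all libraries for the 4 highest and 4 lowest genes by level and by excess rate, the 2 largest IAA differences in each direction, called genes and genes whose intervals disagreed; other genes were named after their values were seen.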

Additional observations from a re-analysis of the deposited data

How the results depend on the processing

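Of the single-gene results for synthetases, 852 of 926 kept their direction and side of the threshold over the alternatives, 28 lost and 11 gained a call, and 35 (in 16 genes, all in total mRNA and none called) changed sign; the losses were in RARS1, WARS2, YARS1, EARS2 and NARS1, all for the rate. With a replicate block, 231 genes were called in total mRNA in place of 176, with 0 synthetases in both, and 4289 in place of 4514 in the rate, where 17 synthetases were called either way, WARS2 and YARS1 lost and AARS1 and TARS2 gained; the block changed no other synthetase call. In total mRNA, 98 genes were called at a mean CPM of at least 5, where fewer genes were tested, and 372 with DESeq2, the cause of which was not tested; leaving out 1 library gave 69 to 267 (267 without no 4sU replicate 1). Synthetases called there numbered 1 with DESeq2 and 0 to 1 with 1 library left out. In the rate, 13 to 18 synthetases were called with 1 library left out.

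For IAA, the median difference of the rate was 0.0883 at a pseudocount of 0.002 and 0.2874 without centring, and -0.0072 to 0.17 with 1 DMSO 4sU library left out; synthetases called numbered 1 at that pseudocount, 10 at a fold of 0.5 log2 units, and 2 to 4 with 1 library left out. The cytosolic over mitochondrial ratio of 3.13 was 3.65 with intervals summed, 5.66 per kilobase and 2.60 by means, and the rate difference of 0.181% was 0.426% by means; the causes were not tested.

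The changes of sign came from leaving out 1 library in 30 of the 35 results. The log2 differences in total mRNA then ranged as follows: EPRS1 -0.1263 to 0.098, FARSB -0.1322 to 0.1912, HARS1 -0.0265 to 0.3234, HARS2 -0.3974 to 0.0844, IARS2 -0.4661 to 0.0184, LARS2 -0.1227 to 0.0021, MARS1 -0.0112 to 0.3255, NARS1 -0.0631 to 0.0674, RARS1 -0.1387 to 0.1559, RARS2 -0.3813 to 0.1902, SARS1 -0.2743 to 0.3056, TARS1 -0.1564 to 0.3748, VARS1 -0.0967 to 0.1216, WARS1 -0.121 to 0.2696, WARS2 -0.1158 to 0.4709, YARS1 -0.0624 to 0.3372. With the deposited scaling only, EPRS1 turned to 0.0088, FARSB to 0.0325, NARS1 to 0.0455 and RARS1 to 0.0294, and with edgeR NARS1 turned to 0.0004. No direction is therefore given for these genes in total mRNA.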
